A study of Homo sapiens with 12 samples.

Results

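Heat shock proteins of the cytosol and of the mitochondrial matrix were examined in RNA-seq of mantle cell lymphoma (MCL) cell lines. The 10 genes were taken as a fixed list and found in the count table by their Ensembl identifiers, 10 of 63677 genes. They were the constitutive HSP70 HSPA8 (ENSG00000109971), the stress-inducible HSP70 pair HSPA1A (ENSG00000204389) and HSPA1B (ENSG00000204388), the nucleotide exchange factor HSPH1 (ENSG00000120694), the J-domain co-chaperone DNAJB1 (ENSG00000132002), the inducible and constitutive cytosolic HSP90 genes HSP90AA1 (ENSG00000080824) and HSP90AB1 (ENSG00000096384), the mitochondrial chaperonin HSPD1 (ENSG00000144381) with its co-chaperonin HSPE1 (ENSG00000115541), and HSF1 (ENSG00000185122), the transcription factor of the heat shock response. All 10 passed the filter on low counts. The libraries came from JEKO1, JVM2 and MAVER1, established lines of MCL, a B-cell lymphoma, each left untreated as control or treated for 48 h with ironomycin, ibrutinib or both drugs. Ironomycin, a small molecule made from salinomycin and known to keep iron from leaving lysosomes, was given at 50 nM to JEKO1 and at 250 nM to JVM2 and MAVER1. Ibrutinib, which blocks the kinase BTK downstream of the B-cell receptor, was given at 0.5 μM to JEKO1, 1.5 μM to JVM2 and 6.25 μM to MAVER1. Each line gave 1 library per treatment, so the 3 lines were the replicates of a treatment (n = 3). Ibrutinib dose and line cannot be told apart, nor can ironomycin dose and line where JEKO1 is compared with the others.

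HSP70 binds exposed hydrophobic stretches of unfolded proteins in cycles of ATP hydrolysis that are started by J-domain proteins and reset by nucleotide exchange factors. HSP90 receives partly folded clients from HSP70 and matures kinases and receptors with a large set of co-chaperones, while HSPD1 and HSPE1 form the folding chamber of the mitochondrial matrix. HSF1 is held inactive by chaperones in unstressed cells and, when unfolded proteins engage those chaperones, forms trimers that bind repeated GAA and TTC blocks in the promoters of heat shock genes. In B-cell lymphoma, kinases of the B-cell receptor pathway are among the known clients of HSP90.

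The promoters are shown first, because most members are textbook HSF1 targets and the blocks that HSF1 binds can be seen in the letters. RefSeq windows of 300 bases (250 before to 50 after an annotated start, build GRCh38.p14) were found for 9 members, 15 windows in all, and none was used for HSF1. They were searched on both strands for the 8-letter motifs GAANNTTC and TTCNNGAA, each of which reads the same on the opposite strand, and for the 13-letter motifs GAANNTTCNNGAA and TTCNNGAANNTTC, which hold overlapping copies of the shorter ones. An 8-letter motif lay in 8 of the 15 windows and in 7 members, against 13.5% of 35116 background windows from RefSeq. That background did not cover all genes. A 13-letter motif lay in 4 windows of 4 members (HSPA8, HSP90AA1, HSP90AB1 and HSPD1), against 0.49% of the same background windows. The windows of those 4 members and, for the inducible HSP70, that of HSPA1A read as follows, with all matched motifs in capitals.
HSPA8, chr11:123062087-123062386 (- strand): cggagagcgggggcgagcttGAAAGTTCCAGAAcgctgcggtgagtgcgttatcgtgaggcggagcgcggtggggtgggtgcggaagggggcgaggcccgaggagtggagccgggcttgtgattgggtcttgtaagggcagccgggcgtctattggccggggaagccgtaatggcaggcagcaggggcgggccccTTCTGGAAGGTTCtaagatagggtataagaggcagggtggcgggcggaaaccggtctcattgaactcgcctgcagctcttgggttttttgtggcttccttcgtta
HSP90AA1, chr14:102086995-102087294 (- strand): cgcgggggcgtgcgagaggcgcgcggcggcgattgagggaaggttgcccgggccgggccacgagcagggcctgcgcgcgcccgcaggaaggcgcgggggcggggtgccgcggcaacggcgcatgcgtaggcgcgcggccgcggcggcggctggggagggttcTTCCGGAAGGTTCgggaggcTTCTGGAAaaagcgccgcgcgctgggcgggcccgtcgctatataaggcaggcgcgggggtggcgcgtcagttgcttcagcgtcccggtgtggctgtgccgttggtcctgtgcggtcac
HSP90AB1, chr6:44247693-44247992 (+ strand): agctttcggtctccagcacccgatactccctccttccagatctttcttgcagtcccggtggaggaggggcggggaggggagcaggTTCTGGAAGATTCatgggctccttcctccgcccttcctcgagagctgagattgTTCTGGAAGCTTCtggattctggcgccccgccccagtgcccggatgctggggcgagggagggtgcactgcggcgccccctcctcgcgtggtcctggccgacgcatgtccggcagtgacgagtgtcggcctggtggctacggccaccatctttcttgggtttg
HSPD1, chr2:197499791-197500090 (- strand): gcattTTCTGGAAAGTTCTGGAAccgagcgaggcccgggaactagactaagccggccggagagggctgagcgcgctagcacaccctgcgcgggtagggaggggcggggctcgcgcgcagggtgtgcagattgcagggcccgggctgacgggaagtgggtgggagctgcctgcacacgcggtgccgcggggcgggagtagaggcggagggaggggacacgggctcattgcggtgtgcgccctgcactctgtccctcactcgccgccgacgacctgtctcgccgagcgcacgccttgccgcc
HSPA1A, chr6:31815293-31815592 (+ strand): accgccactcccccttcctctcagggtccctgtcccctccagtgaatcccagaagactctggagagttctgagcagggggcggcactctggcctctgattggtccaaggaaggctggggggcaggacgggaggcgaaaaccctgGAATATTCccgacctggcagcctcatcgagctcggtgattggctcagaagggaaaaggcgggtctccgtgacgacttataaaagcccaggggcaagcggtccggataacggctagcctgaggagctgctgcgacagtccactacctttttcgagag
The HSPA1B window held the same 8 letters as HSPA1A, and the windows were equal at 277 of 299 aligned bases (92.6%). DNAJB1 held an 8-letter motif in 2 of its 3 windows. The HSPH1 window and the HSPE1 window held none, and the HSPE1 window shared 204 bases with the other HSPD1 window, since these genes lie head to head. The HSPD1 matches shown above began at -245 to -235 from its start, between that start and the HSPE1 start. They lay outside the HSPE1 window, so a lack of matches in that window does not mean that none lies upstream of HSPE1. A match is a description of letters and not a measured binding site.

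Library totals ran from 35448523 to 38630809 reads, with the lowest in JEKO1 with both drugs. Transcripts of 6 B-cell markers summed to 1184 to 2203 RPM (reads scaled to the library total) in all libraries. In JVM2, SOX11 was at 0 in all 4 libraries, CD5 did not exceed 0.05 RPM, and 4 MCL markers together reached 441 to 531 RPM against 2784 to 5003 in the other lines. Summed markers of T cells stayed at or below 2.95, those of monocytes at or below 4.98, and those of epithelium and stroma at or below 48.1 RPM. The share of reads on mitochondrially encoded genes fell from 2.05% in untreated JEKO1 to 0.883% with both drugs, and went from 1.92% to 1.21% in MAVER1 and from 2.03% to 1.89% in JVM2. Its part in the differences below was not tested.

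The 10 genes together took 0.999% of the reads of untreated JEKO1, 0.772% of JVM2 and 0.846% of MAVER1. With ironomycin they took 0.759%, 0.706% and 0.601% in the same order, and with both drugs 0.557%, 0.729% and 0.536%. Ibrutinib alone left 0.929%, 0.871% and 0.852%. The share was thus lower than control in every line with ironomycin, with or without ibrutinib, and by the smallest margin in JVM2. In bulk RNA, fewer cells that express a gene and less of its RNA per cell cannot be told apart.

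CPM are read counts scaled to library size after TMM, a factor that sets the typical gene equal between libraries. Per length, HSP90AB1 was the most abundant member in every untreated line, with 1669 CPM per kilobase of exon in JEKO1, 1015 in JVM2 and 1096 in MAVER1. HSP90AA1 (289 to 383), HSPA8 (252 to 324) and HSPD1 (248 to 326 CPM per kilobase) followed and their ranges over the 3 lines overlapped. HSPA1A ran from 45.4 to 151 and HSPA1B from 30.9 to 98.1, and HSPH1 (19.8 to 30.3), DNAJB1 (13.8 to 38.4) and HSF1 (15.2 to 24.4 CPM per kilobase) were lower. HSPE1 stood at 5.76 to 10.3 CPM per kilobase, although its product works in a complex with that of HSPD1. It was counted with 339 to 735 reads per library, and HSPD1 had 55.8 to 135 reads for each read of HSPE1. The readthrough gene HSPE1-MOB4, whose exons overlap 192 of 1977 exon bases of HSPE1, was at 0 reads in all 12 libraries. How the counter treated reads in overlapping exons is not given, so this 0 does not show whether HSPE1 lost reads. Of the 100-base windows of HSPE1 transcripts, 13.2% recur in other genes. Whether overlapping exons or sequence shared with other genes lowered the HSPE1 count was not tested, and its level is uncertain.

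**Figure D1:**
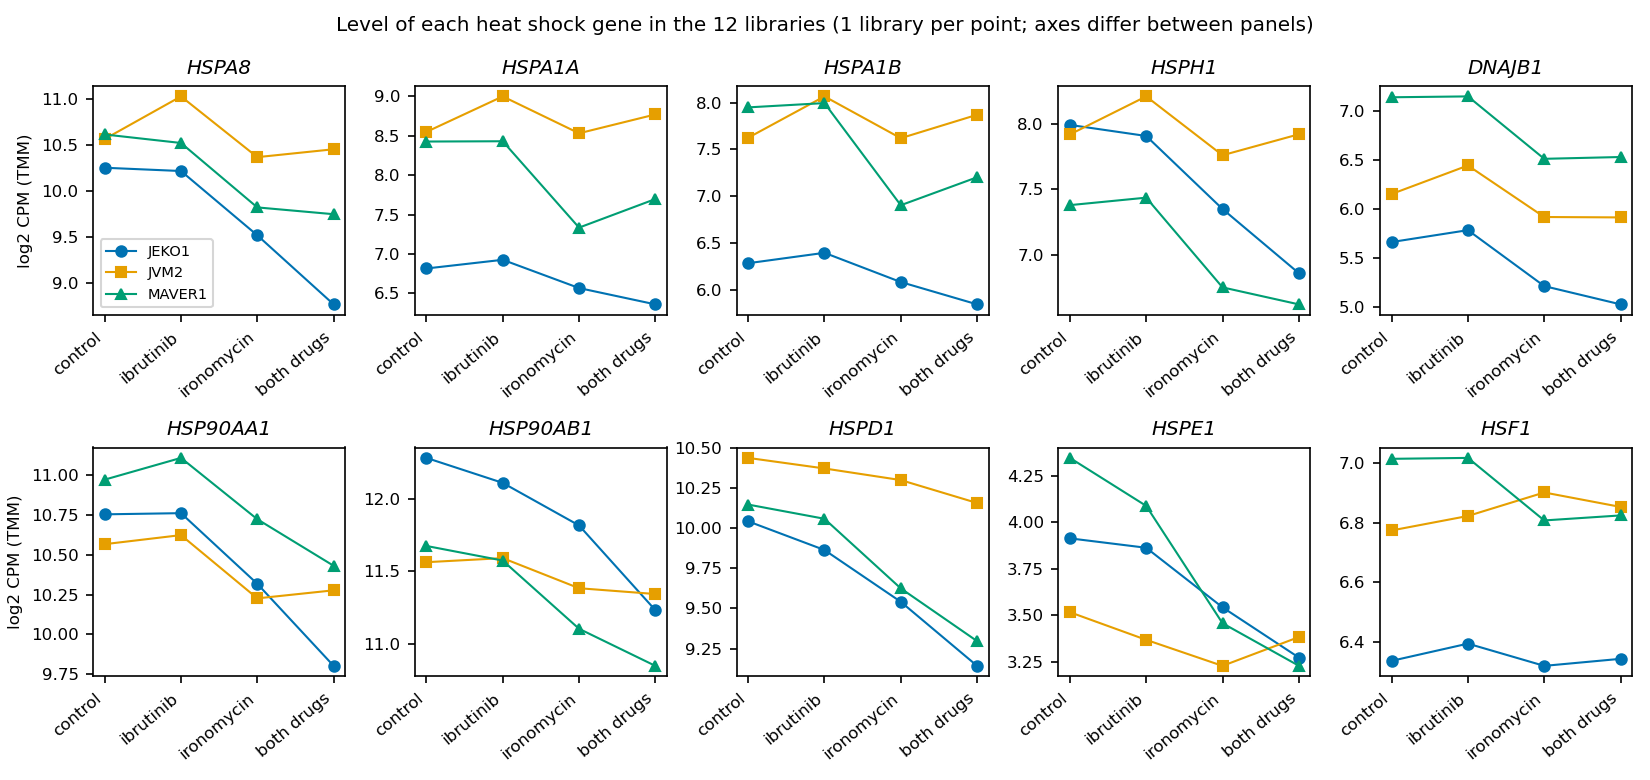
Level of each of the 10 genes as TMM-normalised log2 CPM (vertical axis, a separate scale in each panel) in control, ibrutinib, ironomycin and both drugs, with 1 point per library and a line joining the libraries of JEKO1 (circles), JVM2 (squares) and MAVER1 (triangles). The libraries with ironomycin, alone or with ibrutinib, lie below those without it for all 10 genes in MAVER1, for 9 in JEKO1 and for 5 in JVM2. The share of all genes that part in this way within a line was not computed, so these counts describe the panels only.

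HSPA8 had the largest fitted fall of the members with both drugs. In TMM-normalised log2 CPM, it stood at 10.26 in untreated JEKO1, 10.57 in JVM2 and 10.62 in MAVER1. With ironomycin it stood at 9.52, 10.37 and 9.82 in the same order of lines, with ibrutinib at 10.22, 11.03 and 10.53, and with both drugs at 8.76, 10.46 and 9.75. The JEKO1 library with both drugs was the lowest of the 12 and the JVM2 library with ibrutinib the highest, and the treatments overlapped because JVM2 with both drugs remained above untreated JEKO1. Against control, the fitted log2 fold change was -0.81 ± 0.20 with both drugs (n = 3 lines), by which its level fell by 43.1%. Its adjusted p was 0.0144 by edgeR's quasi-likelihood test. With ironomycin alone the fitted change was -0.60 ± 0.20 and did not pass (adjusted p = 0.121). The ± of a fitted change, here and below, is an SE from the fit to all 12 libraries. It is not the spread between lines. For HSPA8 with both drugs, the differences were -1.49 in JEKO1, -0.11 in JVM2 and -0.87 in MAVER1.

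The cytosolic HSP90 genes were lower in each line with both drugs. HSP90AB1 stood at 12.28, 11.56 and 11.67 log2 CPM in untreated JEKO1, JVM2 and MAVER1, at 11.82, 11.38 and 11.10 with ironomycin, at 12.11, 11.59 and 11.57 with ibrutinib, and at 11.23, 11.34 and 10.85 with both drugs. Every library with both drugs lay below every control library for this gene. The fitted change with both drugs was -0.69 ± 0.15 (adjusted p = 0.00826). HSP90AA1 stood at 10.75, 10.57 and 10.97 log2 CPM in control, at 10.32, 10.23 and 10.72 with ironomycin, at 10.76, 10.62 and 11.11 with ibrutinib, and at 9.80, 10.28 and 10.43 with both drugs. Here too all libraries with both drugs lay below all controls, and the fitted change was -0.59 ± 0.13 (adjusted p = 0.00868). With ironomycin alone, HSP90AB1 differed by -0.41 ± 0.15 (adjusted p = 0.139) and HSP90AA1 by -0.34 ± 0.13 (adjusted p = 0.148).

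The HSP70 co-chaperones followed the same course. DNAJB1, which delivers clients to HSP70 and starts its ATP hydrolysis, stood at 5.66, 6.15 and 7.14 log2 CPM in untreated JEKO1, JVM2 and MAVER1, at 5.21, 5.92 and 6.51 with ironomycin, at 5.78, 6.44 and 7.15 with ibrutinib, and at 5.02, 5.91 and 6.53 with both drugs. Its level differed more between lines than between treatments, and the 4 libraries of JEKO1, of JVM2 and of MAVER1 did not overlap. Within each line, both libraries with ironomycin lay below both libraries without it. The fitted change with both drugs was -0.50 ± 0.092 (adjusted p = 0.00516), and with ironomycin alone it was -0.44 ± 0.092 (adjusted p = 0.0592), the member nearest to the threshold in that comparison. HSPH1 stood at 7.99, 7.92 and 7.38 log2 CPM in control, at 7.35, 7.76 and 6.75 with ironomycin, at 7.91, 8.21 and 7.44 with ibrutinib, and at 6.86, 7.92 and 6.62 with both drugs. It was lower with both drugs in JEKO1 and MAVER1 and level with control in JVM2, where the difference was 0.0013 on the log2 scale. The fitted change of HSPH1 with both drugs was -0.62 ± 0.16 (adjusted p = 0.0192).

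Both mitochondrial chaperonin genes were lower with both drugs. HSPD1 stood at 10.04, 10.44 and 10.15 log2 CPM in untreated JEKO1, JVM2 and MAVER1, at 9.54, 10.30 and 9.62 with ironomycin, at 9.86, 10.37 and 10.06 with ibrutinib, and at 9.14, 10.16 and 9.30 with both drugs. In each line the order was control, ibrutinib, ironomycin, both drugs from high to low, and JVM2 stayed above the other lines throughout. The fitted change with both drugs was -0.67 ± 0.13 (adjusted p = 0.00521), and pseudogenes named after HSPD1 took 1.22% to 1.71% of the reads of gene and pseudogenes together. HSPE1 stood at 3.91, 3.52 and 4.35 log2 CPM in control, at 3.54, 3.23 and 3.46 with ironomycin, at 3.86, 3.37 and 4.09 with ibrutinib, and at 3.27, 3.38 and 3.23 with both drugs. All of its libraries with both drugs lay below all controls, and the fitted change was -0.63 ± 0.17 (adjusted p = 0.0217). HSP90AA1, HSP90AB1 and HSPE1 were the 3 members whose libraries with both drugs and controls did not overlap, against 4.01% of all genes with every library below. With ironomycin alone, HSPD1 differed by -0.39 ± 0.13 (adjusted p = 0.112) and HSPE1 by -0.53 ± 0.17 (adjusted p = 0.115).

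The inducible HSP70 pair split by line. HSPA1A stood at 6.82, 8.55 and 8.43 log2 CPM in untreated JEKO1, JVM2 and MAVER1, at 6.57, 8.53 and 7.33 with ironomycin, at 6.93, 9.0 and 8.43 with ibrutinib, and at 6.36, 8.77 and 7.70 with both drugs. It dropped by over 1 on the log2 scale with ironomycin in MAVER1 (-1.09), moved by -0.02 in JVM2, and was higher with both drugs than in control in JVM2 (0.22). HSPA1B stood at 6.28, 7.63 and 7.95 log2 CPM in control, at 6.08, 7.62 and 6.90 with ironomycin, at 6.39, 8.07 and 8.0 with ibrutinib, and at 5.84, 7.87 and 7.20 with both drugs. With both drugs the fitted changes were -0.33 ± 0.18 for HSPA1A (adjusted p = 0.195) and -0.32 ± 0.19 for HSPA1B (adjusted p = 0.214), and neither passed the test. With a line left out they ran from -0.64 to -0.11 for HSPA1A and from -0.64 to -0.09 for HSPA1B, and without JVM2 both passed (adjusted p = 0.0371 and 0.0385, edgeR). The transcripts of this pair are nearly identical, with 67.3% of the 100-base windows of HSPA1A also found in HSPA1B, so the split of reads between them is uncertain. HSPA1A had 1.40 to 1.45 reads per HSPA1B read in JEKO1, 1.86 to 1.91 in JVM2 and 1.35 to 1.41 in MAVER1. Summed to 1 gene, the pair differed by -0.33 with both drugs (adjusted p = 0.204).

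HSF1 was the member with the smallest fitted differences from control. It stood at 6.34, 6.77 and 7.01 log2 CPM in untreated JEKO1, JVM2 and MAVER1, at 6.32, 6.90 and 6.81 with ironomycin, at 6.39, 6.82 and 7.02 with ibrutinib, and at 6.34, 6.85 and 6.82 with both drugs. JEKO1 stayed below the other lines in all treatments. The fitted change was -0.03 ± 0.082 with ironomycin (95% interval -0.21 to 0.15) and -0.04 ± 0.082 with both drugs (-0.22 to 0.15; adjusted p = 0.775), and its sign turned when libraries were scaled by their totals alone (0.0886 with both drugs). The activity of the HSF1 protein is not measured by its transcript.

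Ironomycin alone was compared with control to ask which transcripts the drug changed without ibrutinib. Of the 10 members, 0 were called at an adjusted p under 0.05, where 0.584% of the 18674 genes tested were called. All 10 were fitted lower, against 8694 of the 18674 genes tested, and 9 had an unadjusted p under 0.05, against 4198 genes. Their median log2 fold change was -0.43 against 0.03 over all genes tested. The 9 members other than HSF1 were lower in all 3 lines, against 21.1% of all genes. DESeq2 on the same counts called 7 members, all lower (HSPA8, HSPH1, DNAJB1, HSP90AA1, HSP90AB1, HSPD1 and HSPE1), where it called 17.4% of the 13605 genes to which it gave an adjusted p. Without JVM2, edgeR called 6, all lower, where 9.1% of all genes were called, and without JEKO1 or without MAVER1 it called 0 (0.0168% and 0.0053% of all genes).

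Ibrutinib alone changed no member detectably. The test called 0 of the 10 members and 0% of all genes, with 0 members at an unadjusted p under 0.05, and DESeq2 called 0 members and 0.165% of the genes with an adjusted p. The fitted values ran from -0.16 for HSPE1 (95% interval -0.53 to 0.22) to 0.18 for HSPA1B (-0.22 to 0.59). In JVM2, HSPA8, HSPA1A and HSPA1B were each higher with ibrutinib by 0.44 to 0.47 on the log2 scale, and in MAVER1 they differed by -0.09 to 0.05.

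With both drugs against control, 7 of the 10 members fell and 0 rose: HSPA8, HSPH1, DNAJB1, HSP90AA1, HSP90AB1, HSPD1 and HSPE1. Over all genes tested 28.2% were called, 14% as lower. The members' median log2 fold change was -0.60 against 0.05 over all genes, and 6 members were lower in all 3 lines against 23.7% of all genes. Among the 7, DNAJB1 fell by 29.2% and HSPA8 fell by 43.1%, the smallest and largest losses, so none reached a log2 fold change of 1. Without JEKO1 and without MAVER1, 0 members were called (0.207% and 0.117% of genes), and without JVM2 9 were called, all lower (33.9% of genes). The fitted changes were nearer to 0 without JEKO1 for HSPA8 (-0.51) and HSPH1 (-0.38) and without MAVER1 for HSPE1 (-0.38), and without JVM2 HSPH1 was at -0.98. Without the JEKO1 library with both drugs, the one of lowest total, 5 were called (HSPA8, DNAJB1, HSP90AA1, HSP90AB1 and HSPD1, 11.9% of genes), and the change of HSPA8 was then -0.56. Without the line as a block, 0 members and 0% of genes were called.

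**Figure D2:**
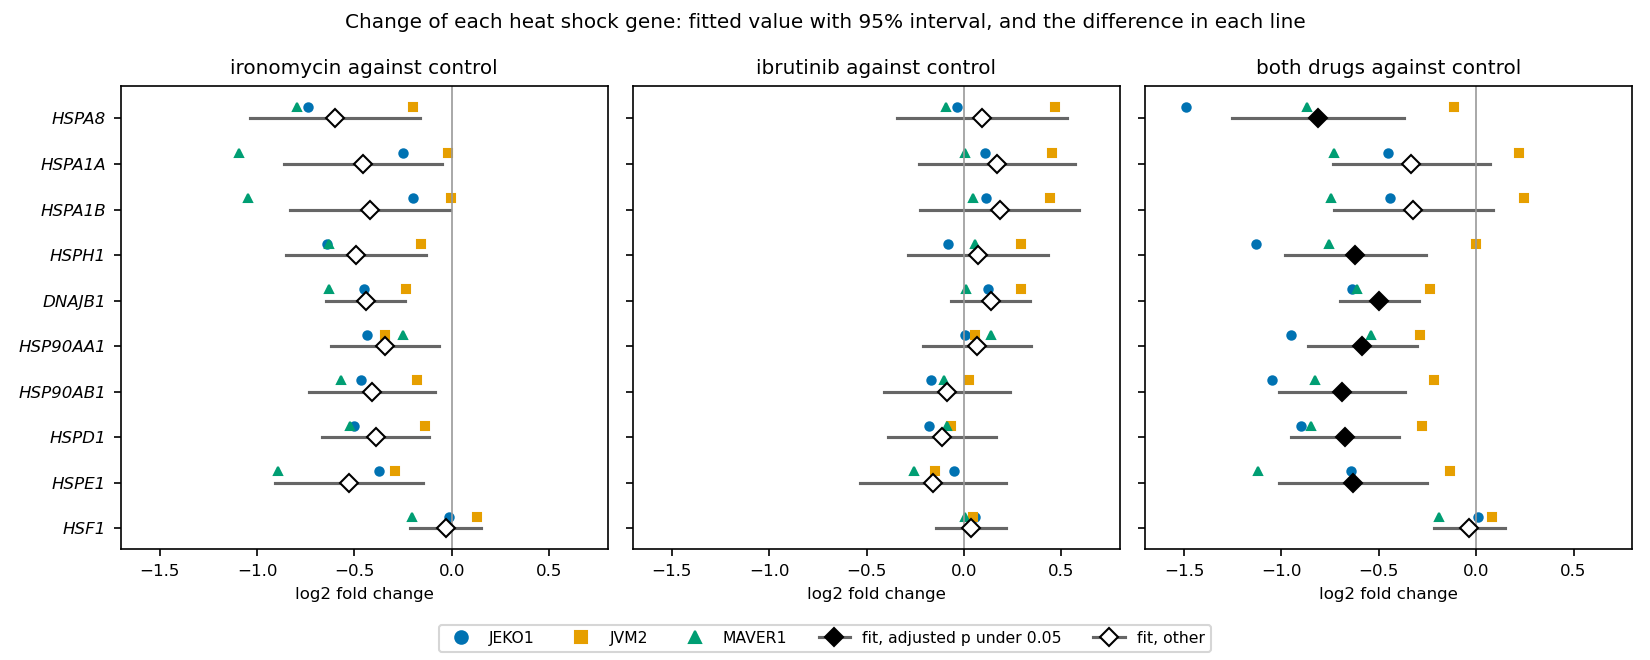
Fitted log2 fold change against control for each gene (diamonds, filled where the adjusted p was under 0.05) with its 95% interval (bars), for ironomycin, ibrutinib and both drugs, and the difference in each line (circles JEKO1, squares JVM2, triangles MAVER1). With both drugs 7 diamonds are filled, all below 0, and the JVM2 squares lie to the right of the other lines for every gene shown. How many of all genes show this order was not computed.

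The combination was also set against each drug. Against ibrutinib alone, which shares the libraries with both drugs with the comparison above, 6 members fell and 0 rose, where 23.3% of all genes were called and 11.5% as lower, and 8 members were lower in all 3 lines against 24.3% of all genes. HSPA8 differed by -0.90 ± 0.20 (adjusted p = 0.0119), DNAJB1 by -0.63 ± 0.092 (adjusted p = 0.00441), HSPH1 by -0.70 ± 0.16 (adjusted p = 0.015), HSP90AA1 by -0.65 ± 0.13 (adjusted p = 0.00816), HSP90AB1 by -0.60 ± 0.15 (adjusted p = 0.0168) and HSPD1 by -0.56 ± 0.13 (adjusted p = 0.0125). HSPE1, HSPA1A and HSPA1B had fitted values of -0.47, -0.50 and -0.51 with adjusted p-values of 0.0701, 0.0696 and 0.0714, and HSF1 was at -0.07 (0.563). Without JEKO1 or without MAVER1 0 members were called (0.00559% and 0.0318% of genes), and without JVM2 9 were called (28.9% of genes). Against ironomycin alone, 0 members and 0% of genes were called by edgeR, and 0 members and 1.27% of genes by DESeq2. The fitted differences ran from -0.28 for HSPD1 (95% interval -0.56 to -0.0065, unadjusted p = 0.0457, adjusted p = 0.468) to 0.12 for HSPA1A (-0.28 to 0.52). HSPD1 was the 1 member with an unadjusted p under 0.05, where 1970 of the 18674 genes tested had one, and it was lower in 3 of 3 lines. The departure of both drugs from the sum of the single changes was called for 0 members and 0% of genes by edgeR, with 0 members at an unadjusted p under 0.05, and for 0 members by DESeq2. Its fitted value was below 0 for 9 members and for 9018 of the 18674 genes tested. Among the members it ran from -0.31 for HSP90AA1 (95% interval -0.70 to 0.09) to 0.06 for HSPE1 (-0.48 to 0.59).

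The ironomycin difference was compared between the lines. Averaged over the pairs without and with ibrutinib, it was highest in JVM2 for all 10 members (least negative, or above 0 for HSF1), lowest in MAVER1 for 6 (HSPA1A, HSPA1B, DNAJB1, HSPD1, HSPE1 and HSF1) and lowest in JEKO1 for 4 (HSPA8, HSPH1, HSP90AA1 and HSP90AB1). The order of the lines over all genes was not computed, so this order is not shown to be particular to the members. HSPA1B, the inducible HSP70, was at -0.38 in JEKO1, -0.10 in JVM2 and -0.92 in MAVER1. HSPA1B was the 1 member for which the lines differed at an adjusted p under 0.05 (0.0403), where 9.38% of all genes were called. No line had repeat cultures, so this test took the pairs without and with ibrutinib as repeats of the ironomycin difference in a line. HSPA1A was at -0.41, -0.12 and -0.91 (adjusted p = 0.0539), and with the reads of the pair summed the adjusted p was 0.0505. HSPE1 was at -0.48, -0.14 and -0.88 (0.0578), HSPD1 at -0.61, -0.18 and -0.64 (0.0612), and HSPA8 at -1.10, -0.39 and -0.79 (0.212). In all, 6 members had an unadjusted p under 0.05, as did 5103 of the 18674 genes tested. The test gave 6 called members without JEKO1 (10.6% of genes), 0 without JVM2 (3.58%) and 0 without MAVER1 (1.38%). JVM2 and MAVER1 had both received 250 nM of ironomycin and JEKO1 50 nM, so ironomycin dose and line cannot be told apart where JEKO1 is compared. In the pairs with ibrutinib, the ibrutinib dose also differed between all lines.

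**Figure D3:**
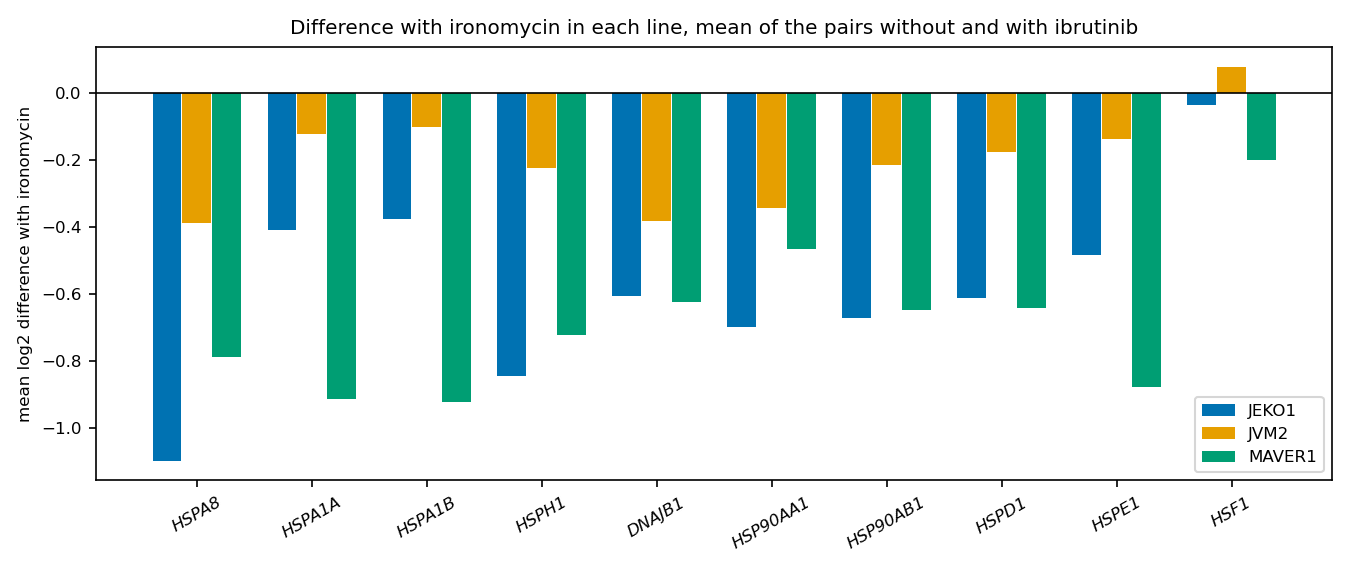
Mean log2 difference with ironomycin in JEKO1, JVM2 and MAVER1 (bars from 0), averaged over the pair control and ironomycin and the pair ibrutinib and both drugs, for each of the 10 genes. The JVM2 bar is the highest of the 3 for all 10 genes, and the widest spread is seen for HSPA1A and HSPA1B. The share of all genes with this order was not computed.

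Levels also differed between lines irrespective of treatment. Averaged over the 4 treatments of a line, HSPA1A was highest in JVM2 (8.71 ± 0.22 log2 CPM, SD, n = 4 libraries), then MAVER1 (7.97 ± 0.55), then JEKO1 (6.67 ± 0.25), and no neighbours in this order overlapped. DNAJB1 was highest in MAVER1, then JVM2, then JEKO1, again with no overlap, at 6.83 ± 0.36, 6.10 ± 0.25 and 5.42 ± 0.36. For HSP90AB1 the order was JEKO1, JVM2, MAVER1, and for HSP90AA1 it was MAVER1, JVM2, JEKO1, and all neighbours overlapped. These SDs include the treatments and are not replicate error.

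The members kept to similar courses over the libraries. After centring each gene within its line, the Pearson r of log2 CPM over the 12 libraries was 0.689 to 0.998 for the 36 pairs without HSF1 (median 0.876) and 0.356 to 0.785 for the 9 pairs with HSF1. Of 11203 genes ranked by r, the closest to the mean of the 5 cytosolic chaperones HSPA8, HSPH1, DNAJB1, HSP90AA1 and HSP90AB1 were NKRF (0.996), the TRiC subunit CCT6A (0.994), the replicative helicase subunit MCM2 (0.989), the ubiquitin-conjugating enzyme UBE2N (0.989) and UTP14A (0.988). The closest to the mean of HSPD1 and HSPE1 were PHB1 (0.995), the glycolytic enzyme PKM (0.995), POLDIP2 (0.994), the tricarboxylic acid cycle subunit IDH3B (0.994) and the proteasome subunit PSMB4 (0.992). For HSPA1A and HSPA1B they were POLR1C (0.985), RPUSD4 (0.976), NIBAN3 (0.959), GNG2 (0.956) and LSP1 (0.953). For HSF1 they were ANK1 (0.944), DPCD (0.942), LRPAP1 (0.932), GNPDA2 (0.931) and TRIB2 (0.931). The libraries share treatments and lines, and r between pairs of other genes was not computed. Similar courses are thus not shown to be particular to the members. The highest r among members, 0.998, was that of HSPA1A with HSPA1B, which share much of their sequence.

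Genes that work with the members were examined in 7 lists, here with both drugs against control, where 28.2% of all genes were called. The HSP90 co-chaperones fell broadly: 11 of 14 tested genes fell and 1 rose, with a median log2 fold change of -0.51. Among them were FKBP4 (-1.01 ± 0.17, adjusted p = 0.00379), a prolyl isomerase of steroid receptor complexes, AHSA1 (-0.74 ± 0.11, adjusted p = 0.00334), which stimulates the ATPase of HSP90, STIP1 (-0.74 ± 0.12, adjusted p = 0.00383), which hands clients from HSP70 to HSP90, and the phosphatase PPP5C (-0.69 ± 0.10, adjusted p = 0.00334). TSC1, best known as a brake on mTORC1, was the 1 that rose, by 0.86 ± 0.17 (adjusted p = 0.00629).

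The cytosolic folding chamber TRiC with its partner prefoldin fell in 12 of 14 genes and rose in 0, with a median of -0.60. CCT2 (-0.72 ± 0.097, adjusted p = 0.00269), CCT5 (-0.80 ± 0.12, adjusted p = 0.00341) and CCT4 (-0.78 ± 0.14, adjusted p = 0.00434) were among them. In the HSP70 system, 5 of 23 genes fell and 1 rose, with a median of -0.20. HSPA4, an exchange factor related to HSPH1, fell (-0.53 ± 0.11, adjusted p = 0.00804), as did DNAJA2 (-0.50 ± 0.11, adjusted p = 0.00921), while HSPA13, an HSP70 relative found with microsomes, rose by 1.21 ± 0.28 (adjusted p = 0.0105). DNAJA1 was at -0.40 (adjusted p = 0.0675), BAG3, an exchange factor induced by HSF1, at 0.05 (adjusted p = 0.733) and HSPA6, a strictly inducible HSP70, at 0.09 (adjusted p = 0.835), none of which passed.

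Of 16 mitochondrial chaperones and proteases, 5 fell and 0 rose, with a median of -0.19, and the share of reads on mitochondrially encoded genes moved as given above. The matrix protease subunit CLPP (-0.72 ± 0.12, adjusted p = 0.00373), the disaggregase CLPB (-0.77 ± 0.14, adjusted p = 0.0047), GRPEL1 (-0.62 ± 0.11, adjusted p = 0.00463), the exchange factor of mitochondrial HSP70, and TRAP1 (-0.61 ± 0.14, adjusted p = 0.0123), the mitochondrial HSP90, were among them. HSPA9, the mitochondrial HSP70 itself, was at -0.15 ± 0.090 and did not pass (adjusted p = 0.227).

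Among 13 tested small heat shock proteins and other HSF1 targets, 5 fell and 0 rose, with a median of -0.46. RGS2, a regulator of G-protein signalling, fell by 1.88 ± 0.17 on the log2 scale (-1.88, adjusted p = 7.96e-04), and HSPB1, the small heat shock protein HSP27, by 1.21 ± 0.23 (-1.21, adjusted p = 0.00518). FKBP4 stood on this list also. Of 13 heat shock factors and regulators of HSF1, 4 rose and 4 fell, with a median of 0.18. HSF4, a factor known from the lens, rose by 1.35 ± 0.19 (adjusted p = 0.00321) and the deacetylase HDAC6 by 0.51 ± 0.13 (adjusted p = 0.0161), while HSF2 (-0.39 ± 0.091, adjusted p = 0.0115) and HSBP1 (-0.56 ± 0.12, adjusted p = 0.0079), whose product binds HSF1, fell.

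The chaperones of the endoplasmic reticulum (ER) moved the other way. Of 18 tested, 11 rose and 0 fell, with a median of 0.55, and all 18 were fitted higher, against 10152 of the 18674 genes tested. HSPA5, the HSP70 of the ER, rose by 0.67 ± 0.17 (adjusted p = 0.0177) and HSP90B1, its HSP90, by 0.60 ± 0.17 (adjusted p = 0.0258). Among their co-chaperones, DNAJB9 rose by 1.49 ± 0.30 (adjusted p = 0.00648) and DNAJC3 by 1.10 ± 0.24 (adjusted p = 0.00959). In JVM2 the differences of HSPA5 (0.12), HSP90B1 (0.11) and DNAJB9 (0.29) were the smallest of the 3 lines. With ironomycin alone, 0 genes of any of the 7 lists were called by edgeR, although all 18 ER chaperones had an unadjusted p under 0.05 and a fitted value above 0, with a median of 0.52, and all 14 TRiC and prefoldin genes were fitted lower, with a median of -0.37. HSPA5 was then at 0.63 ± 0.17 (adjusted p = 0.0873), STIP1 at -0.56 ± 0.12 (adjusted p = 0.0632) and AHSA1 at -0.50 ± 0.11 (adjusted p = 0.0616).

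**Figure D4:**
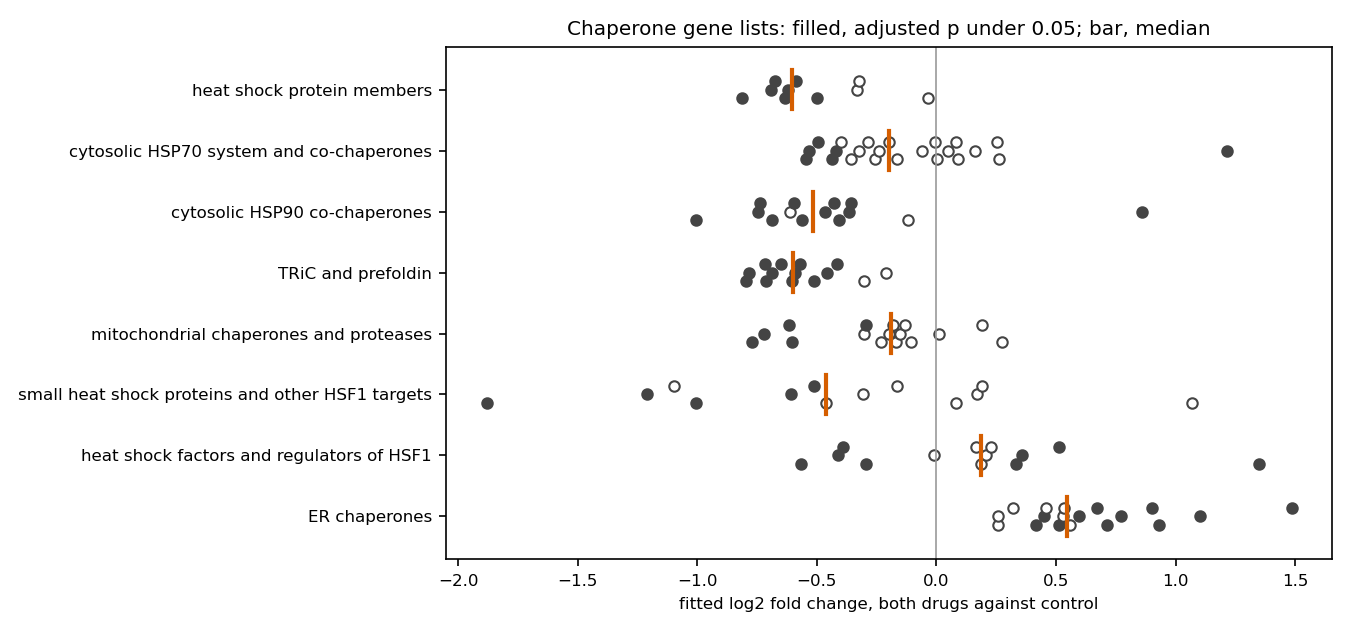
Fitted log2 fold change with both drugs against control (horizontal axis) of the heat shock genes and of 7 lists of related genes, with 1 point per gene (filled where the adjusted p was under 0.05) and a bar at the median of each list. The medians of the members, the HSP90 co-chaperones and TRiC with prefoldin lie at -0.60, -0.51 and -0.60, and that of the ER chaperones at 0.55.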

How the data were processed

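Polyadenylated RNA of 12 cultures was sequenced as paired-end stranded libraries. For each Ensembl gene the authors deposited its raw read count, not normalized. The submitters' processing notes name STAR, DESeq2 and GRCh37, and the counter, its strand setting, the annotation release and the versions are not given in the sources used here. Columns left unused were 0. Each treatment had 1 culture per line. With the line as a block, p-values of the treatment comparisons set the fitted difference against the spread left after treatment and line. That spread was pooled over the libraries of all treatments, so it is not that of the compared difference alone. SEs and intervals of fitted changes rest on the same pooled spread. For both drugs against control, 5268 genes and 7 members were called. A fit of those 2 treatments alone, with fewer libraries, called 5 genes and 0 members.

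All 12 libraries entered 1 fit in edgeR 4.0.16 (R 4.3.3) with terms for treatment and cell line, after filterByExpr had kept 18674 genes and TMM had scaled the libraries, and contrasts were tested by quasi-likelihood. Genes were called at a Benjamini-Hochberg adjusted p under 0.05 over all genes tested, with no minimum fold. The ironomycin effect by cell line was a test of 2 coefficients. It took the pairs of libraries without and with ibrutinib as repeats within a line, since no line had repeat cultures. Levels are log2 CPM with a prior count of 2. Levels per kilobase used union exon lengths of GENCODE on GRCh38, another build than that of the counts. DESeq2 1.42.0 was an alternative, with a likelihood ratio test for the effect by line. The cell line was the block because same-numbered libraries come from the same line. After subtracting treatment means, the 18 pairs of libraries within lines had correlations of 0.926 to 0.976 and the 48 pairs between lines had -0.705 to -0.127. With so few lines, subtracting the means itself pushes correlations between lines below 0, so these values do not test the choice of block. The fits were tested on simulated data.

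The members, the 7 lists and the markers were chosen with earlier results of these data known. Named genes were the members, called genes of the lists (up to 5 per list and comparison by lowest adjusted p), 12 further chaperone genes whatever their values, and the 5 genes most like each of 4 profiles. Promoter windows came from RefSeq (GRCh38.p14). Python 3.11.15, pandas 2.3.3 and matplotlib 3.10.9 were used for tables and plots.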

Additional observations from a re-analysis of the deposited data

Results flagged for a closer look

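HSPA1B was singled out because its difference with ironomycin varied between the cell lines by a test of that difference itself (edgeR's quasi-likelihood test of 2 coefficients, adjusted p = 0.04025). It was the 1 call among 10 members, near the share of 9.38% called over all genes tested. The mean differences were -0.38 in JEKO1, -0.10 in JVM2 and -0.92 in MAVER1 on the log2 scale. They rest on the pairs without and with ibrutinib and not on repeat cultures of a line. Over the alternatives its adjusted p ran from 0.00494 with no filter on low counts to 0.521 without MAVER1, and without JVM2 it was 0.12. Its reads are hard to part from those of HSPA1A, and for the sum of the pair the adjusted p was 0.0505.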

How the results depend on the processing

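Of 704 alternative values of single members, 684 kept the direction reported and 20 turned, each of the 20 with an adjusted p above 0.05 in both settings. Of 81 alternative counts of called members, 43 were a count of 0 that stayed at 0, and of the 34 with a reported count above 0, 14 stayed within 1.5 times of it. In parentheses are the genes called of those tested. For ironomycin against control the count of 0 (109 of 18674) became 7 with DESeq2 (2362 of 13605), 1 with no filter on low counts (497 of 35583), 0 to 6 with a line left out (1 to 1636 genes), and 1 without the JEKO1 library with both drugs (281 of 19094), a choice made after seeing the data. For both drugs against control the count of 7 (5268 of 18674) became 0 with a log2 fold change of at least 1 (1175 genes), 0 with no replicate block (0 genes), 0 with the libraries of the 2 treatments alone (5 of 16136), 0 to 9 with a line left out (22 to 6103 genes), and 5 without that JEKO1 library (2275 of 19094). For both drugs against ibrutinib the count of 6 (4359 genes) became 0 with the fold minimum (870), 0 with no replicate block (0), 1 with the 2 treatments alone (306), 0 to 9 with a line left out (1 to 5192), and 3 without that JEKO1 library (1230), and it was 9 with DESeq2 (5585) and 8 with no filter on low counts (3911). For the ironomycin effect by cell line the count of 1 (1751 genes) became 3 with library totals (1840), 6 with no filter (2225), 3 with DESeq2 (2159), 0 with HSPA1A and HSPA1B summed (1751), 4 with an ibrutinib term for each line (2488), 0 to 6 with a line left out (260 to 1897), and 4 without that JEKO1 library (1415). Dropping the replicate block changed no other call of a member in the comparisons where it was run. Leaving out a line also leaves fewer libraries in the fit, and the cause of the other moves was not tested.

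Scaling by library totals moved the median of all genes with both drugs against control from 0.05 to 0.18 and turned HSF1 to 0.0356 with ironomycin, 0.0886 with both drugs, 0.053 against ironomycin and 0.0306 against ibrutinib. With a line left out, HSF1 ran from -0.138 to 0.0542 with ironomycin, from -0.127 to 0.0406 with both drugs and from -0.0182 to 0.0109 with both drugs against ironomycin. With ibrutinib, HSPA8 ran from -0.0647 to 0.184 and HSPH1 from -0.0174 to 0.165, below 0 only without JVM2. With both drugs against ironomycin, HSPA8 ran from -0.405 to 0.0109, HSPH1 from -0.317 to 0.0275 and DNAJB1 from -0.092 to 0.0061, above 0 only without JEKO1, and HSPA1B from -0.0021 to 0.27. The departure ran from -0.245 to 0.0935 for HSPA1A, from -0.251 to 0.0532 for HSPA1B and from -0.0977 to 0.195 for HSPE1. Without the JEKO1 library with both drugs, both drugs against ironomycin gave 0.0366 for HSPA8, 0.0525 for HSPH1 and 0.0055 for DNAJB1, and the departure of HSPA1A was 0.0406. The fold minimum has no meaning for a test of 2 coefficients and was not run there.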
